A study of Mus musculus with 8 samples.

Results

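The genes described here are 9 transcription factors that direct blood progenitors towards granulocytes and monocytes: the C/EBP proteins Cebpa, Cebpb, Cebpd and Cebpe, and Spi1, Gfi1, Irf8, Klf4 and Runx1. They were taken by gene symbol, with no signal threshold, from all probe sets that the platform annotation assigns to a single gene. Of the 9 genes, 8 had such a probe set (17 probe sets in all), out of 18193 genes on the array, and all 8 passed the signal filter that left 8886 genes for testing. Cebpe was not analysed here, because no probe set carries its symbol in the annotation used.

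The material was mouse bone marrow. Common myeloid progenitors (CMP), which can still form every myeloid lineage, and their descendants the granulocyte-monocyte progenitors (GMP) were sorted from G0 TERTER/+ mice, called normal by the submitters, and from G4/G5 TERTER/ER mice. TERT-ER is a telomerase catalytic subunit fused to an estrogen receptor domain, and it is inactive without its ligand. The G0 controls carry the allele too, next to a normal copy, while in the G4/G5 mice both copies are the fusion and telomeres have shortened over successive generations. The mice were males on a mainly C576BL/6 background, of ages not given in the sources used here, and every mouse carried the allele from the germ line, so that all marrow cells and not the progenitors alone were affected. Each of the 4 groups held 2 arrays, and each array a pool of cells from 4 mice matched for age and sex, which makes n = 2 pools per group.

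These factors bind DNA in the progenitor nucleus and act on each other as well as on lineage genes. PU.1, the product of Spi1, and C/EBP alpha open the myeloid programme against erythroid factors such as GATA1, and Runx1 acts upstream of both as the DNA-binding subunit of core binding factor. Further down, Gfi1 and C/EBP epsilon drive granulocyte maturation, Irf8 and Klf4 favour monocytes, and C/EBP beta and C/EBP delta are known for emergency and late granulocyte production.

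The values are MAS5 signals, a linear brightness for each probe set scaled to a trimmed array mean of 100. Array medians lay between 14.3 and 18.5, and the filter level of 50 was reached by 31.6% to 35.2% of the probe sets. The marker sums parted the labelled cell types: 5 genes of CMP or earlier cells summed to between 4031 and 6794 in CMP and between 2449 and 2726 in GMP. The summed signal of 7 GMP genes was 6443 and 13279 in the CMP of G0 mice, 24803 and 21045 in those of G4/G5 mice, 31604 and 30890 in the GMP of G0 mice and 35875 and 35794 in those of G4/G5 mice. G4/G5 CMP pool 1 stood apart. Its summed signal over 11 genes of maturing neutrophils was 56578, against 246 in G4/G5 CMP pool 2, 318 and 326 in normal CMP, 1513 and 3386 in normal GMP and 29696 and 32353 in G4/G5 GMP. All 11 reached the filter on at least 1 array, and in each CMP group 1 of 11 did so in both pools. Markers of other lineages were also high there. Those of eosinophils, basophils and mast cells summed to 8968, against 3551 in G4/G5 CMP pool 2 and 2868 and 2887 in normal CMP, and megakaryocyte markers to 2899, against 768, 1591 and 1325. Values without G4/G5 CMP pool 1 are therefore given for the differences of the factors between genotypes in CMP and between cell types in G4/G5. For the other results that use this array they are given in part. T and NK cell markers reached at most 30.6 in sum and none passed the filter, and 1 of 7 B cell markers passed it. Tert itself read at most 14.9, below the filter, and as the allele is a fusion its signal does not check the genotype labels. In these bulk samples, fewer cells of a type and less RNA per cell cannot be told apart.

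In normal mice, GMP expressed Cebpb, Cebpd and Gfi1 about 4 times as highly as CMP, and expressed Runx1 lower, by 1.86-fold. Those 4 were the factors that passed in this comparison (3 higher, 1 lower, of 8 tested; limma, adjusted p under 0.05), and Cebpa, Spi1, Irf8 and Klf4 did not pass. Over all 8886 genes the same test called 20.8%, with 10.6% higher and 10.2% lower in GMP. The median difference of the 8 factors was 1.04 on the log2(signal + 10) scale, against -0.02 over all genes. The arrays of the groups did not overlap for 6 of the 8, and for 65.3% of all genes. The neutrophil marker sums were higher in normal GMP (1513 and 3386) than in normal CMP (318 and 326), and their part in these differences was not tested.

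**Figure D1:**
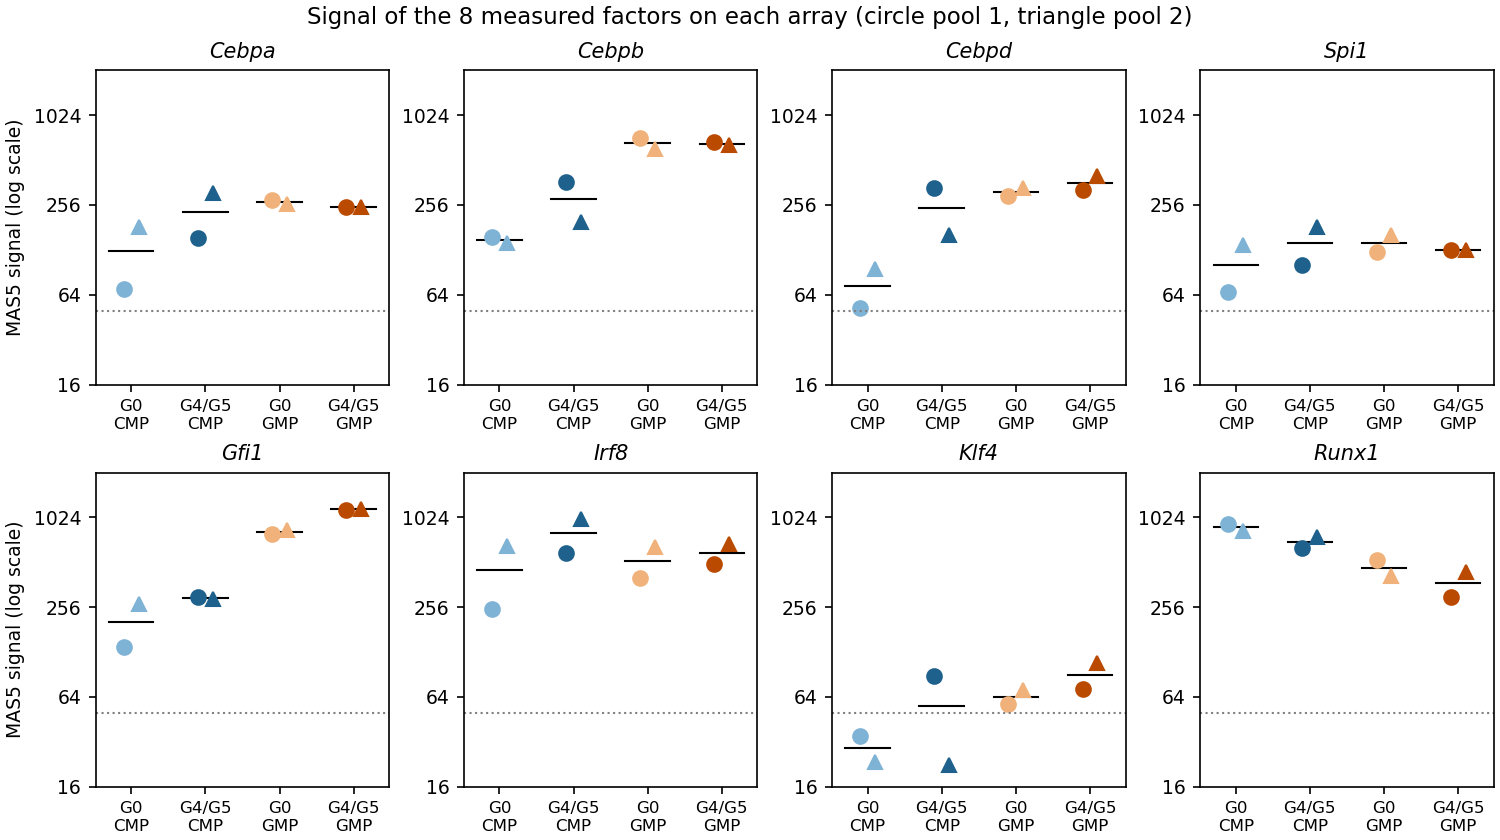
MAS5 signal (log scale) of the brightest probe set of each of the 8 measured factors, in the 4 groups along the x axis. Circles are pool 1, triangles pool 2, the black bar is the mean of the 2 pools and the dotted line the filter of 50. Gfi1 and Cebpb are higher in every GMP array than in every CMP array, Runx1 is lower in every GMP array, and Cebpa, Spi1 and Irf8 differ more between the CMP pools than between the GMP pools.

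Gfi1 is a zinc finger repressor that granulocyte progenitors need and that holds back monocyte genes. It read 139 and 267 in normal CMP, 301 and 289 in the G4/G5 CMP pools, 795 and 845 in normal GMP and 1139.8 and 1174 in the G4/G5 GMP pools. Every GMP array was above every CMP array, and within each cell type both G4/G5 pools were above both G0 pools. GMP exceeded CMP by 2.03 ± 0.25 (SE, log2) in G0 (limma, adjusted p = 0.00321) and by 1.94 ± 0.25 in G4/G5 (adjusted p = 0.00423), which are 4.09-fold and 3.83-fold.

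Cebpb encodes a C/EBP factor that takes over granulocyte production under infection and cytokine stress. Its signals were 155 and 142 in the CMP of G0 mice, 366 and 198 in those of G4/G5 mice, 716 and 612 in the GMP of G0 mice and 675 and 641 in those of G4/G5 mice. The CMP groups did not overlap each other or the GMP groups, while the GMP groups overlapped. GMP were higher by 2.08 ± 0.25 (SE, log2; 4.24-fold) in G0 (limma, adjusted p = 0.00302) and by 1.26 ± 0.25 (2.39-fold) in G4/G5 (adjusted p = 0.0208). The call in G4/G5 was lost without either G4/G5 GMP pool (adjusted p = 0.169 and 0.112) and in a fit of the G4/G5 arrays alone (0.0619).

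Cebpd encodes a relative that is induced during acute inflammation and late in granulocyte maturation. It read 51.9 and 94.5 in normal CMP, 330.3 and 160.3 in the G4/G5 CMP pools, 296 and 331 in normal GMP and 321 and 399 in the G4/G5 GMP pools. The G0 CMP pools lay below all other arrays, and G4/G5 CMP pool 1 lay among the GMP arrays. GMP were higher by 2.01 ± 0.34 (SE, log2; 4.02-fold) in G0 (limma, adjusted p = 0.00853). In G4/G5 the difference was 0.61 ± 0.34 (adjusted p = 0.265), and it was 1.11 and passed (adjusted p = 0.0428) without G4/G5 CMP pool 1, but 0.11 (0.84) without the other CMP pool of that genotype.

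The promoters of Cebpb and Gfi1, which were higher in GMP in both genotypes, are shown as the 250 bases before an annotated start, from RefSeq (GRCm38.p6), 5′ to 3′ on the gene's own strand. For Gfi1 it is the more upstream start in the promoter table. Cebpb lies on chr2:167688665-167688914, plus strand, and Gfi1 on chr5:107725806-107726055, minus strand. Capitals mark matches to the motifs searched.
Cebpb: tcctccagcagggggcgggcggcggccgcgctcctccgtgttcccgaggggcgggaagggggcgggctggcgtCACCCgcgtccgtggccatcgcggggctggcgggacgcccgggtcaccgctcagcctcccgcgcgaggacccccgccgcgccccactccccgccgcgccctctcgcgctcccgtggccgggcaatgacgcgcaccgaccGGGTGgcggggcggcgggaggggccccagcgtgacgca
Gfi1: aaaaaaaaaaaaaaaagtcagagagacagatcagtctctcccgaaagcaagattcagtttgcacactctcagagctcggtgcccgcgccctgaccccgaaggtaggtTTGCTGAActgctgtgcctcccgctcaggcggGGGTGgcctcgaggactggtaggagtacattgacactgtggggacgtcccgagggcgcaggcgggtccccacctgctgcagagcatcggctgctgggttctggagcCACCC
Motifs were searched on both strands, with no match overlapping a match of another motif: C/EBP (TTNNGNAA), PU.1 (GAGGAAG), RUNX (TGTGGT), GFI1 (AATCNNNGC), IRF (GAAA, any 2 bases and GAAA again) and KLF (CACCC). The C/EBP letters TTGCTGAA begin 143 bases before this Gfi1 start. The window of the more downstream Gfi1 start held no match to any of the motifs. At least 1 C/EBP match was present in 40.7% of all 32851 promoters of the table, each read from 250 bases before to 50 after the start. The other capitals in both sequences are KLF letters, present in 57.5% of promoters. The table held 9 promoters of 6 of the 9 factors, and none of Cebpd, Spi1 or Cebpe. Over those 9 promoters, the GFI1 letters (10.3% of all promoters) occurred in the more upstream Irf8 promoter, beginning 127 bases before that start. PU.1 letters (13.6%) and IRF letters (3.44%) occurred in none of the 9, which says only that these letters are not in those windows.

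Runx1 is the factor that was lower in GMP. It sets up blood stem cells and later restrains their expansion. The signals were 927 and 828 in the CMP of G0 mice, 638 and 754 in those of G4/G5 mice, 529 and 412 in the GMP of G0 mice and 301 and 441 in those of G4/G5 mice. All CMP arrays were above all GMP arrays, and the G4/G5 CMP pools were below the G0 CMP pools. In GMP it fell by 0.89 ± 0.21 (SE, log2) in G0 (limma, adjusted p = 0.0204) and by 0.91 ± 0.21 in G4/G5 (adjusted p = 0.0309, 1.88-fold lower). Both passed narrowly. In G0 the adjusted p lay between 0.0506 and 0.123 when any of the 4 G0 arrays was left out. In G4/G5 it was 0.246 and 0.0609 without G4/G5 GMP pool 1 and pool 2, 0.0885 with G4/G5 CMP pool 2 left out, 0.0549 and 0.0542 without G0 GMP pool 1 and pool 2, and 0.0658 in a fit of the G4/G5 arrays alone.

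The 22 bases from position 25 to 46 after the more distal Runx1 start (position 1 is the first transcribed base) are shown because they hold the motif of Runx1 itself, in its own gene, in 2 copies on the strand opposite to the letters searched. The stretch is chr16:92826029-92826050, minus strand, RefSeq, GRCm38.p6, and capitals mark the motif.
Runx1: aacaACCACAgaACCACAagtt
RUNX letters were in 16.8% of all promoters of the table and, among the 9 promoters of the factors, in this one. A match is a description of letters and not a measured binding site.

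Cebpa encodes the factor that CMP require to become GMP. Its signals were 69.8 and 182 in normal CMP, 153 and 308 in the G4/G5 CMP pools, 275 and 259 in normal GMP and 248 and 249 in the G4/G5 GMP pools. The G0 GMP pools were above both G0 CMP pools, and the G4/G5 GMP pools lay between the CMP pools of that genotype. The difference between GMP and CMP in G0 was 1.16 ± 0.41 (SE, log2; limma, adjusted p = 0.0767). It passed with the paired pools as a block (adjusted p = 0.00752 with a block within each cell type, 0.0421 with a block shared by cell types). It did not pass with quantile normalization (limma adjusted p = 0.0705). Leaving out either G4/G5 CMP pool changes the estimate of spread and not this difference. Over the alternatives the difference ran from 0.53 to 1.79, the latter without G0 CMP pool 2. In G4/G5 the difference was 0.18 ± 0.41 (adjusted p = 0.799), and with G4/G5 CMP pool 1 left out it was -0.30 (0.641).

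Spi1 encodes PU.1, an ETS factor needed for monocytes, granulocytes and B cells. It read 66.6 and 137 in the CMP of G0 mice, 101 and 183 in those of G4/G5 mice, 124 and 160.3 in the GMP of G0 mice and 128 and 128 in those of G4/G5 mice. All neighbouring groups overlapped when ordered by mean. The differences between GMP and CMP were 0.51 ± 0.34 (SE, log2) in G0 and -0.08 ± 0.34 in G4/G5 (limma, adjusted p = 0.319 and 0.894), and the latter was 0.014 with quantile normalization.

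Irf8 encodes an interferon regulatory factor that directs progenitors to monocytes and dendritic cells. Its signals were 248 and 662 in normal CMP, 593 and 1005 in the G4/G5 CMP pools, 399 and 647 in normal GMP and 501 and 679 in the G4/G5 GMP pools. All neighbouring groups overlapped here too. GMP differed from CMP by 0.32 ± 0.45 (SE, log2) in G0 and by -0.40 ± 0.45 in G4/G5 (limma, adjusted p = 0.641 and 0.581).

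Klf4 encodes a zinc finger activator of monocyte genes. It read 35.1 and 23.5 in the CMP of G0 mice, 88.7 and 22.4 in those of G4/G5 mice, 57.2 and 71.2 in the GMP of G0 mice and 72.1 and 108 in those of G4/G5 mice. It was the dimmest of the 8 against the filter: 3 of 4 CMP arrays were below 50, and all 4 GMP arrays were above it. The difference between GMP and CMP was 0.93 ± 0.47 (SE, log2) in G0 and 0.80 ± 0.47 in G4/G5 (limma, adjusted p = 0.194 and 0.292). In G0 it passed in a fit of the G0 arrays alone (limma adjusted p = 0.0487) and not with quantile normalization (0.174). Leaving out either G4/G5 CMP pool changes its spread in G0 and not the difference, which ran from 0.53 to 1.14 over the alternatives. In G4/G5 the difference was 1.61 without G4/G5 CMP pool 1 and -0.0013 without pool 2.

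**Figure D2:**
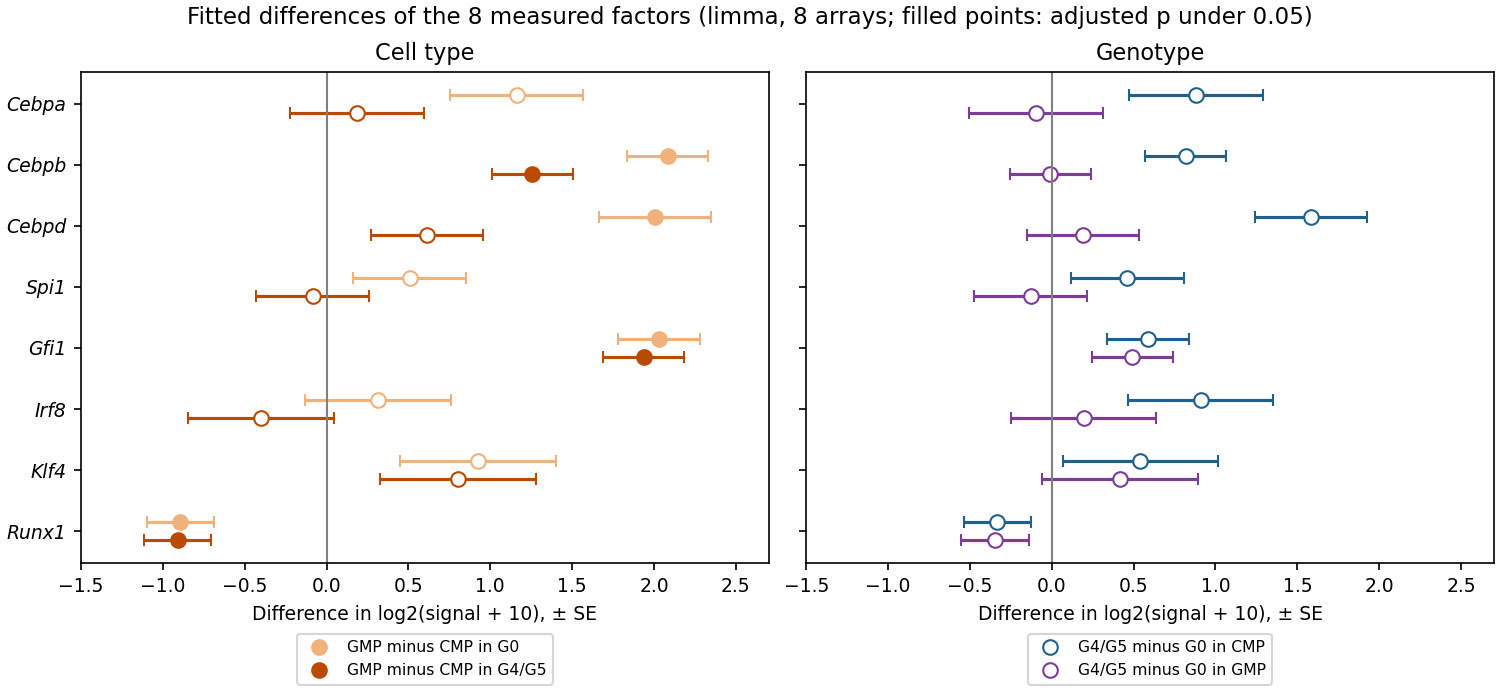
Differences in log2(signal + 10) with their standard errors for the 8 measured factors, from the limma fit over 8 arrays. The left panel shows GMP minus CMP in each genotype and the right panel G4/G5 minus G0 in each cell type, and filled points have an adjusted p under 0.05. Filled points appear only on the left, for Cebpb, Gfi1 and Runx1 in both genotypes and for Cebpd in G0.

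In G4/G5 mice 3 of the 8 factors passed between GMP and CMP: Cebpb and Gfi1 were higher in GMP and Runx1 lower. The background was 10.5% of all genes called, 4.18% higher and 6.29% lower. The median of the 8 was 0.40, against -0.04 over all genes, and 3 of 8 did not overlap between the groups, against 60.7% of all genes. Without G4/G5 CMP pool 1 the differences were 1.68 for Cebpb, 1.97 for Gfi1, -1.03 for Runx1, -0.48 for Spi1 and -0.78 for Irf8. Those of Cebpd, Cebpa and Klf4 are given above. The number of calls in both genotypes changed when a single GMP pool was left out, which leaves 1 array in that group. The differences themselves moved less in G0. Without G0 GMP pool 1 the G0 differences were 2.07 for Gfi1, 1.97 for Cebpb, 2.08 for Cebpd and -1.07 for Runx1. Without G0 GMP pool 1, 0 of 8 passed in G0 (adjusted p between 0.0507 and 0.0906 for the 4 named) as the calls over all genes went from 1845 to 67, and without G0 GMP pool 2, 2 passed. Without G4/G5 GMP pool 1, 0 of the factors and 65 of all genes passed in G4/G5, and without G4/G5 GMP pool 2, 1 passed. Leaving out G4/G5 CMP pool 1, 6 passed in G0 and 5 in G4/G5, as the calls over all genes rose to 2545 and 1422. These p-values rest only on how far pools of a group spread, and an exact test of 2 pools against 2 could not go below p = 0.333.

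The genotype comparison asks which genes telomere-dysfunctional progenitors express differently. In CMP, 7 of the 8 factors read higher in G4/G5 than in G0 on average and Runx1 read lower, but none passed (limma, 0 of 8; 3 had an unadjusted p under 0.05, as did 13.4% of all genes). The test called 0.0113% of all genes. The median of the 8 was 0.70, against 0.04 over all genes, of which 55.6% were above 0. The pools of the genotypes did not overlap for Cebpb, Cebpd and Gfi1, all higher in G4/G5, and for Runx1, lower, which is 4 of 8 against 36.5% of all genes.

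The largest difference among the 8 was that of Cebpd, 1.58 ± 0.34 (SE, log2; limma, adjusted p = 0.234), followed by Irf8 with 0.91 ± 0.45 (0.418), Cebpa with 0.88 ± 0.41 (0.394) and Cebpb with 0.82 ± 0.25 (0.298). Gfi1 differed by 0.59 ± 0.25 (0.366), Klf4 by 0.54 ± 0.47 (0.653), Spi1 by 0.46 ± 0.34 (0.591) and Runx1 by -0.33 ± 0.21 (0.509). Without G4/G5 CMP pool 1, the array with the neutrophil signal, the differences were 1.08 for Cebpd, 1.28 for Irf8, 1.36 for Cebpa, 0.39 for Cebpb, 0.56 for Gfi1, -0.26 for Klf4, 0.86 for Spi1 and -0.21 for Runx1, none of which passed. Klf4 turned sign and the difference of Cebpb shrank by more than 1.5 times, while Cebpa, Irf8 and Spi1 came out larger. With that array kept and G4/G5 CMP pool 2 left out, Cebpb (1.25, limma adjusted p = 0.00543) and Cebpd (2.08, 0.00861) passed, among 443 genes called over all. The other values were then 0.53 for Irf8, 0.40 for Cebpa, 0.62 for Gfi1, 1.34 for Klf4, 0.063 for Spi1 and -0.45 for Runx1. Without G0 CMP pool 2 Gfi1 passed (1.04, 0.033), among 116 genes, and without G0 CMP pool 1 it was 0.14, Cebpa 0.25 and Irf8 0.22. The part of these other lineages' RNA in the differences was not tested.

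**Figure D3:**
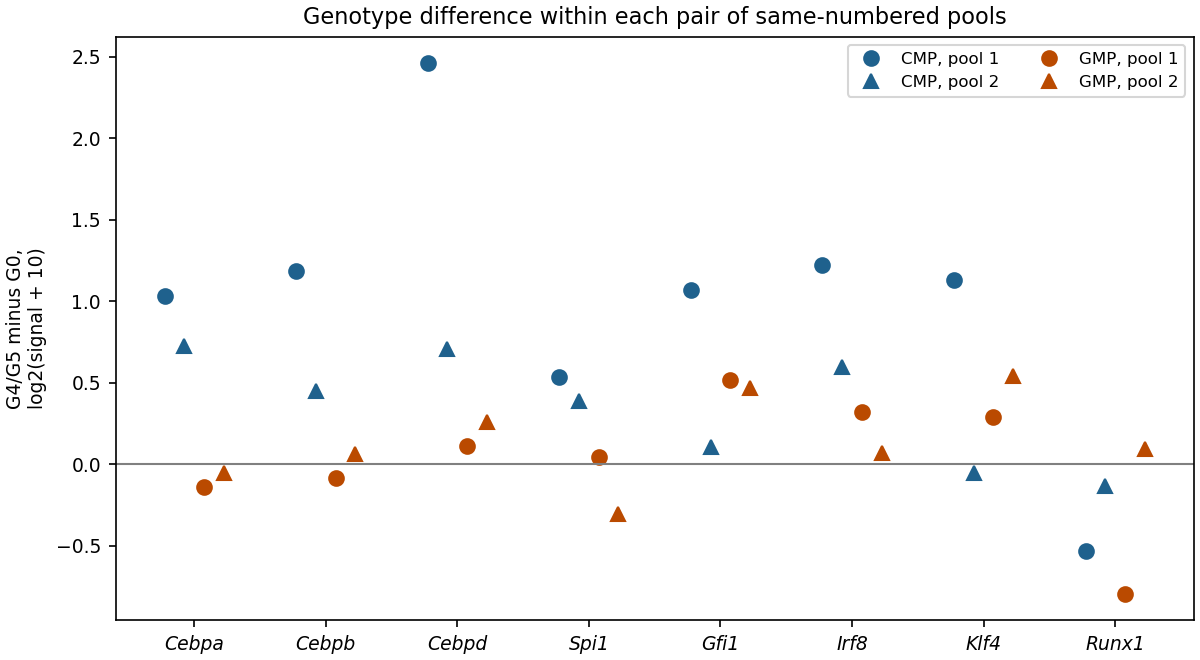
G4/G5 minus G0 in log2(signal + 10) for each of the 8 measured factors within same-numbered pools, which the submitters matched for age and sex. Blue marks CMP, orange GMP, circles pool 1 and triangles pool 2. In CMP pool 1 the difference is larger than in pool 2 for each of the 7 factors above 0, and in GMP all but Gfi1, Klf4 and Runx1 lie between -0.30 and 0.32.

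Within the matched pairs, Cebpd in CMP was 6.37 times as high in G4/G5 as in G0 in pool 1 and 1.70 times in pool 2. The ratios for pool 1 and pool 2 were 2.36 and 1.39 for Cebpb, 2.18 and 1.08 for Gfi1, and 2.53 and 0.950 for Klf4. They lay closer together for Cebpa (2.19 and 1.69) and Spi1 (1.52 and 1.33). Runx1 had ratios of 0.689 and 0.910. So 6 of the 8 factors were higher and Runx1 lower in G4/G5 in both CMP pairs, and the pairs of Klf4 went opposite ways.

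The CMP pools also differed from each other within a genotype. Pool 2 exceeded pool 1 for Cebpa by 2.60-fold in G0 and 2.01-fold in G4/G5, for Irf8 by 2.67-fold and 1.70-fold and for Spi1 by 2.06-fold and 1.81-fold. Cebpd went one way in G0 (pool 2 higher by 1.82-fold) and the other in G4/G5 (pool 1 higher by 2.06-fold), and Klf4 was higher in pool 1 in both (1.49-fold and 3.97-fold). Differences of more than 2-fold between pools were found for 3.26% (G0) and 4.72% (G4/G5) of all genes in CMP, but for 0.540% (G0) and 0.203% (G4/G5) in GMP.

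In GMP the genotypes were closer. Of the 8 factors, 4 were above 0 and 4 below, with a median of 0.09 against 0.01 over all genes, and none passed (limma, 0 of 8, with 0 at an unadjusted p under 0.05, against 7.87% of all genes). Over all genes 0% were called. By the brightest probe sets Gfi1 had the largest difference, 0.49 ± 0.25 (SE, log2; adjusted p = 0.638), and the ratios of its pairs were 1.43 and 1.39. It passed in a fit of the GMP arrays alone (adjusted p = 0.0259), in which 327 genes passed. Klf4 differed by 0.42 ± 0.47, Runx1 by -0.35 ± 0.21, and the other 5 by between -0.13 and 0.19. Gfi1 and Klf4 were higher and Cebpa lower in G4/G5 with no overlap, 3 of 8, against 55.4% of all genes. The summed neutrophil markers given above for GMP moved with the genotype here, and their part in these values was not tested.

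Averaged over both cell types, 7 of the 8 factors were above 0 (median 0.44, against 0.02 over all genes), and 0 of 8 passed (limma, 4 at an unadjusted p under 0.05, against 17.8% of all genes). The share called over all genes was 0.0338%. Cebpd had the largest mean effect, 0.89 (adjusted p = 0.187), then Irf8 with 0.55 (0.386), Gfi1 with 0.54 (0.211) and Klf4 with 0.48 (0.485). Without G4/G5 CMP pool 1 these were 0.64, 0.74, 0.52 and 0.077, and none passed. Without G4/G5 CMP pool 2, Cebpd (1.13, limma adjusted p = 0.0145), Klf4 (0.88, 0.0413) and Cebpb (0.62, 0.0141) passed, among 685 genes called over all. Gfi1 passed without G0 CMP pool 2 (0.77), among 209 genes.

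The genotype effect in GMP minus that in CMP, which is also the cell type difference in G4/G5 minus that in G0, was below 0 for all 8 factors. It was -1.39 ± 0.48 (SE, log2) for Cebpd, -0.98 ± 0.58 for Cebpa, -0.83 ± 0.35 for Cebpb, -0.71 ± 0.63 for Irf8 and -0.59 ± 0.49 for Spi1. For Klf4, Gfi1 and Runx1 it was -0.12, -0.09 and -0.02, within a standard error of 0, and the sign of Runx1 turned with other scalings. None of the 8 passed (limma, 0 of 8, adjusted p between 0.994 and 0.997, 2 at an unadjusted p under 0.05, against 3.97% of all genes), and 0% of all genes were called. The median was -0.65, against -0.03 over all genes. The values turned on which G4/G5 CMP pool was kept. Without pool 1 they were -0.89 for Cebpd, -1.46 for Cebpa, -0.40 for Cebpb, -1.09 for Irf8, -0.99 for Spi1 and 0.68 for Klf4. Without pool 2 they were -1.89, -0.50, -1.25, -0.34, -0.19 and -0.93 in the same order, and none passed in either. A passing cell type difference of Cebpd in G0 and not in G4/G5 is therefore not shown to differ between the genotypes.

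Several factors had more than 1 probe set, and levels are not compared between probe sets. The dimmer Cebpb probe set (1427844_a_at) read 43.5 and 39.0 in normal CMP, 78.5 and 52.1 in the G4/G5 CMP pools, 135 and 152 in normal GMP and 133 and 129 in the G4/G5 GMP pools. Its order of groups was that of the brighter one, and it passed in both genotypes when all probe sets were tested singly (1.58 ± 0.21 SE in G0, limma adjusted p = 0.00403, and 0.92 ± 0.21 in G4/G5, adjusted p = 0.0336). The second Irf8 probe set (1448452_at) read 160.2 and 259 in normal CMP, 182 and 357 in the G4/G5 CMP pools, 191 and 212 in normal GMP and 193 and 263 in the G4/G5 GMP pools. Its cell type differences were -0.02 and -0.17, so the sign in G0 was opposite to that of the brighter probe set, and neither passed.

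Runx1 had 6 probe sets, 5 of which passed the filter. All 5 read lower on average in GMP than in CMP in both genotypes, by log2 values between 0.11 and 0.89 in G0 and between 0.38 and 1.13 in G4/G5. Besides the brightest (1422864_at), the probe set 1440878_at passed in G4/G5 with a difference of -1.13 ± 0.26 (SE; limma, adjusted p = 0.0329). It read 152 and 186 in the CMP of G0 mice, 159 and 261 in those of G4/G5 mice, 118 and 117 in the GMP of G0 mice and 71.8 and 106 in those of G4/G5 mice. The genotype difference in CMP was below 0 on 3 of the 5 Runx1 probe sets and above 0 on 2 (0.26 and 0.40), so its sign depended on the probe set. In GMP the largest was -0.59 ± 0.18 (SE) on 1452531_at (limma, unadjusted p = 0.00994, adjusted p = 0.646). The other probe sets differed there by -0.35 (1422864_at), -0.33 (1422865_at), -0.39 (1440878_at) and 0.35 (1427650_a_at). The other probe sets of Cebpd (13.8 to 34.2) and Klf4 (14.7 to 50.6) and the sixth of Runx1 (22.5 to 43.1) did not pass the filter.

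**Figure D4:**
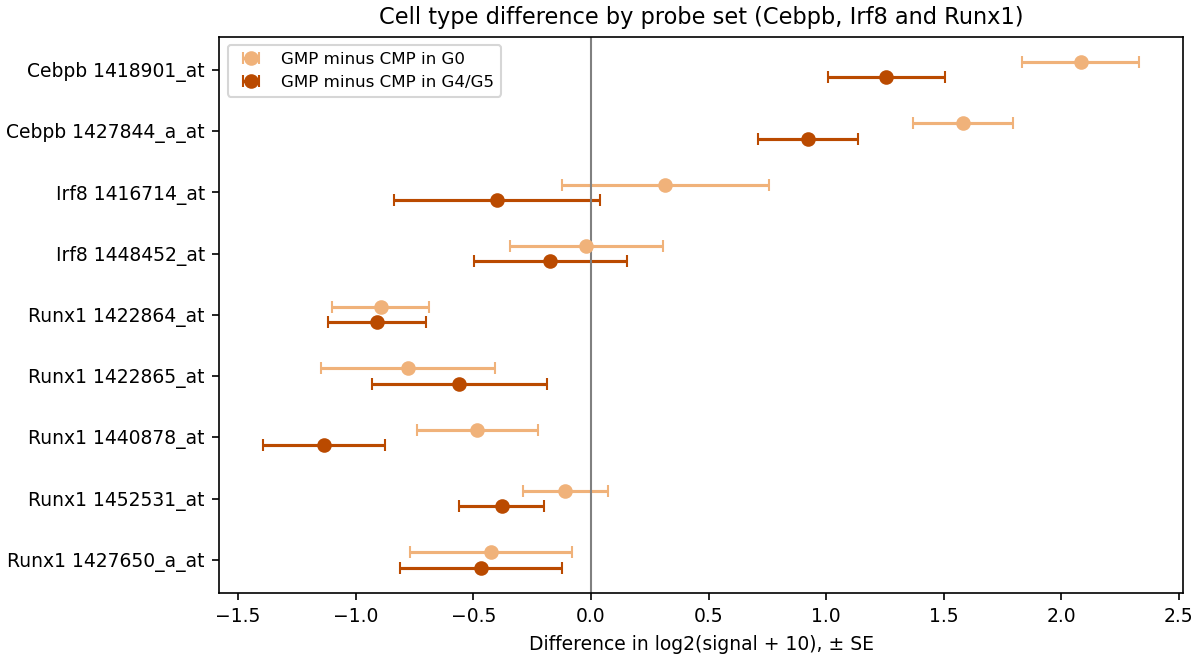
GMP minus CMP in log2(signal + 10), with standard errors, for every probe set past the filter of Cebpb, Irf8 and Runx1, the factors with more than 1 such probe set. Light points are G0 and dark points G4/G5. Both Cebpb probe sets lie above 0 and all 5 Runx1 probe sets below it in both genotypes, and the Irf8 probe sets lie between -0.40 and 0.32.

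Ordered by mean signal, G0 CMP was the lowest group for the 7 factors other than Runx1 and the highest for Runx1. Cebpa, Cebpb, Cebpd, Gfi1 and Klf4 ran from G0 CMP through G4/G5 CMP to the GMP groups. For Gfi1 all neighbouring groups in that order were apart, for Cebpb all but the GMP groups, and for Spi1 and Irf8 none. For Cebpa, Cebpd, Klf4 and Runx1 some neighbouring groups overlapped. In G4/G5 CMP pool 2, Klf4 (22.4) was below both G0 CMP pools (35.1 and 23.5), and Cebpa (308) was above every GMP array. By mean signal, Irf8 was highest in G4/G5 CMP, and Cebpa and Spi1 in G0 GMP.

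Over the 8 arrays, which share the group structure, the profiles of the factors fell into related pairs (Pearson r, n = 8 arrays, as a description). Cebpa was most like Spi1 (r = 0.908), and Spi1 was also like Irf8 (0.868). Cebpb was like Gfi1 (0.920) and Cebpd (0.895), and unlike Irf8 (0.027). Runx1 ran against Gfi1 (-0.932) and Cebpb (-0.897). Among all genes tested, the profiles most like Cebpa were those of Nol12 (0.983) and Csf3r (0.970), the G-CSF receptor. Those most like Cebpb were Rgcc (0.997) and Pde6d (0.993), and those most like Cebpd were Ppib (0.995), a peptidyl-prolyl isomerase of the endoplasmic reticulum, and Lamtor1 (0.992), a lysosomal adaptor. Gfi1 was matched by Gorasp2 (0.993), a Golgi stacking protein, and Ddost (0.987), a subunit of the oligosaccharyl transferase. The closest profiles to Klf4 were Lamp2 (0.982), a lysosomal membrane protein, and Tesk2 (0.974). Those to Spi1 were Fbxw8 (0.979) and Gpr137 (0.978), those to Irf8 were Acot1 (0.982) and Fam234a (0.979), and those to Runx1 were Sall2 (0.986) and Fgf3 (0.983).

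Erythroid and megakaryocyte factors act against the members in the choice between lineages. Of 8 tested, 5 passed as lower in GMP in G0 and 5 in G4/G5, with medians of -1.11 and -1.17. Over all genes 10.2% and 6.29% passed as lower. Zfpm1, the cofactor of GATA1, read 249 and 258 in G0 CMP and 47.6 and 52.0 in G0 GMP (-2.14 ± 0.17 SE, log2; limma, adjusted p = 0.000789). Gata2, a stem and progenitor factor, fell by 1.20 (adjusted p = 0.00574), Tal1 by 1.19 (0.00263) and Nfe2, an activator of megakaryocyte genes, by 1.03 (0.0067). Gata1, which PU.1 binds and inhibits, fell by 1.95 in G0 (0.0082) and by 2.82 in G4/G5 (0.00288). Where GMP signals lay near or below the filter of 50, as for Zfpm1 and Gfi1b in both genotypes and Gata1 and Klf1 in G4/G5, the size of a difference depended on the pseudocount: it was -2.33 for Zfpm1 in G0 with a pseudocount of 1 and -1.60 with 50. No genotype difference passed among the 8 (limma, 0 of 8 in CMP with 0 at an unadjusted p under 0.05, and 0 of 8 in GMP with 2).

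Of the close relatives of the members that passed between GMP and CMP in G0, 10 were lower in GMP and 1, Atf4, was higher. Over all genes in G0, 10.2% passed as lower and 10.6% as higher in GMP. In G4/G5 these shares were 6.29% and 4.18%. Gfi1b, the relative of Gfi1 used by erythroid cells and platelets, read 229 and 185 in G0 CMP and 42.1 and 56.2 in G0 GMP, and so was lower where Gfi1 was higher. It fell in GMP by 1.88 ± 0.23 (SE, log2) in G0 (limma, adjusted p = 0.00313) and by 2.45 ± 0.23 in G4/G5 (0.00129), and was the only 1 of 6 genes of the Gfi1 corepressor group to pass in either. Of 6 Klf relatives tested, Klf1, an erythroid activator, Klf6 and Klf10 fell in G0 (by 1.59, 1.06 and 1.07; adjusted p = 0.0185, 0.0495 and 0.00489), and Klf1 and Klf10 in G4/G5. Klf6 passed narrowly: its limma adjusted p was 0.0749 with a pseudocount of 50, 0.0958 with no filter and 0.104 with quantile normalization, and the call was also lost with median centring (0.0529), no intensity trend (0.052) and the shared block (0.0555), and when any 1 G0 or GMP array was left out. Of 4 interferon regulatory factors, Irf2 and Irf9 fell in G0 (by 1.43 and 0.67, limma adjusted p = 0.0158 and 0.0283), and Irf9 in G4/G5. The call of Irf9 in G0 was lost with no filter (0.0603) and with quantile normalization (0.0524).

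Of 10 Runx and ETS relatives and partners, Cbfa2t3, a corepressor of the ETO family, Elf1 and Erg fell in GMP in G0 (by 1.55, 0.86 and 0.60; limma, adjusted p = 0.0138, 0.0147 and 0.0404), and Cbfa2t3 in G4/G5. The call of Erg was lost with no filter (0.0689), no intensity trend (0.0552) and only the groups compared (0.0615), and whenever 1 G0 or GMP array was dropped (0.0538 to 0.281). With the pairs as a block within each cell type, 5 of the 10 passed in G0 and 2 in G4/G5. Of 5 C/EBP relatives and regulators, Trib2, which marks C/EBP alpha for degradation, was lower in GMP in both genotypes (limma, adjusted p = 0.0128 and 0.00517), and Atf4 was higher in G0 by 0.68 (0.0226). The difference of Atf4 was 0.51 with G0 GMP pool 1 left out and 0.85 with pool 2 left out. Trib2 read 341 and 143 in normal CMP and 238 and 118 in the G4/G5 CMP pools, and in GMP 37.7 and 39.4 in normal mice and 4.13 and 12.7 in the G4/G5 pools, all 4 below the filter, so no fold is given. Among 13 other myeloid regulators, Lmo4 and Id1 were higher in GMP (by 0.89 and 1.60; adjusted p = 0.0146 and 0.0227) and Egr1 and Zeb2 lower (0.00594, and 0.0163 with a log2 difference of -0.85) in G0, and 0 passed in G4/G5 (4 at an unadjusted p under 0.05). Egr1, an immediate early factor, differed widely between the G0 CMP pools, at 254 and 1919.7, and read 18.7 and 8.06 in G0 GMP, below the filter, so no fold is given. Id1 read 30.6 and 30.3 in G0 CMP, also below the filter.

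Known targets of Spi1, Cebpa, Gfi1 and Runx1 were read as receptors and effectors. Of 15 tested, 8 passed as higher in GMP in G0 and 4 in G4/G5 (medians 1.06 and 0.29), against 10.6% and 4.18% of all genes. With the pairs as a block within each cell type, 13 passed in G0 and 5 in G4/G5, among 2356 and 1465 genes called over all. Elane, neutrophil elastase, read 72.3 and 194 in normal CMP, 535 and 315 in the G4/G5 CMP pools, 1182 and 1601 in normal GMP and 1662 and 1797 in the G4/G5 GMP pools. GMP exceeded CMP by 3.42 ± 0.40 (SE, log2) in G0 (limma, adjusted p = 0.00277). Cst7, an inhibitor of cysteine proteases, was higher by 1.63 (0.00187), Prtn3, a serine protease of primary granules, by 1.80 (0.00613) and Nkg7 by 1.06 (0.00489). In CMP all 15 were above 0 in G4/G5 against G0, with a median of 0.98 and 0 calls (limma, 8 at an unadjusted p under 0.05). Over all genes 55.6% were above 0 and 13.4% had an unadjusted p under 0.05. The smallest adjusted p values were 0.146 for Cst7 (0.93) and 0.207 for Prtn3 (1.45). Those differences were 0.69 and 1.14 without G4/G5 CMP pool 1, and without pool 2 both passed (1.17, adjusted p = 0.00272, and 1.76, 0.0156).

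Of 11 monocyte genes linked to Irf8 or Klf4, 5 passed as higher in GMP in G0 and 1, the chemokine receptor Ccr2, in G4/G5. The shares over all genes were 10.6% and 4.18%. In G0, 7 passed with the pairs as a block within each cell type and 8 with a block shared by cell types. Ccr2 read 104 and 126 in the CMP of G0 mice, 355 and 200.5 in those of G4/G5 mice, 436 and 434 in the GMP of G0 mice and 475 and 637 in those of G4/G5 mice (1.84 ± 0.26 SE, log2, in G0; limma, adjusted p = 0.0046). F13a1, a clotting factor subunit of monocytes, was higher by 1.65 (0.0258), Cx3cr1 by 1.11 (0.036) and Ly86, a partner of a Toll-like receptor relative, by 1.04 (0.0103). Cx3cr1 read 28.3 and 41.3 in G0 CMP, below the filter, and its call was lost with no filter (limma adjusted p = 0.07). In CMP all 11 were above 0 in G4/G5 (median 1.07), against 55.6% of all genes. None passed (limma, 0 of 11, with 9 at an unadjusted p under 0.05, against 13.4% of all genes). Ly86 came nearest: 201 and 285 in G0 CMP against 826 and 732 in G4/G5 CMP, a difference of 1.66 ± 0.19 (SE, log2; adjusted p = 0.0606). It passed with a pseudocount of 50 (limma adjusted p = 0.0461), quantile normalization (0.0446), median centring (0.0331), probe sets tested singly (0.0437) and the shared block (0.0442), but not with the block within each cell type (0.104). With 1 CMP array left out, it passed without G4/G5 pool 2 (1.75, 0.00556) and G0 pool 2 (1.90, 0.0142), and not without G4/G5 pool 1 (1.57, 0.162). The part of the other lineages' markers of pool 1 in the CMP values of this list and of the receptors and effectors was not tested.

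With Cebpe itself not analysed here, 11 genes of neutrophils listed as its targets, not all of them secondary granule genes, were read. They do not measure Cebpe. Their median difference between the genotypes was 3.39 in CMP and 3.45 in GMP, and 11 of 11 were above 0 in both. In the main fit 0 passed in either (limma, 3 and 7 at an unadjusted p under 0.05, against 13.4% and 7.87% of all genes). Ifitm6, an interferon-induced membrane protein of maturing neutrophils, read 11.1 and 26.3 in normal CMP, 3293 and 75.0 in the G4/G5 CMP pools, 49.8 and 84.3 in normal GMP and 1369 and 1101 in the G4/G5 GMP pools. Both G4/G5 GMP pools were high. The main fit takes its spread from all groups, G4/G5 CMP pool 1 included. Leaving out that pool could not move the GMP differences of Ifitm6 and Mmp9 (4.04 and 3.45), as each group has its own mean. It lowered their standard errors to 0.31 and 0.49. In a fit of the GMP arrays alone, their standard errors went from 1.32 to 0.20 and from 1.18 to 0.45. Both passed there (limma adjusted p = 6.6e-05 and 0.00624), among 327 genes called over all. The CMP values of this list rested on pool 1. In G4/G5 CMP pool 2, S100a8, S100a9, Mmp9, Camp and Cd177, 5 of the 11, read below both G0 CMP pools, S100a8 at 44.3 against 179 and 103. Without pool 1 the CMP difference of Ifitm6 went from 4.26 to 1.62 and that of Mmp8, a neutrophil collagenase, from 3.39 to 0.89. Of the 11, 10 are also among the neutrophil markers summed above.

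Among the list genes named for a genotype comparison, none passed in the main fit (limma, adjusted p between 0.0606 and 0.656 in CMP and between 0.595 and 0.775 in GMP). Cx3cr1, a chemokine receptor, differed by -1.03 in GMP (0.595). It read 27.3 and 48.9 in the G4/G5 GMP pools, below the filter. In CMP the differences were 0.41 for Gata2, -0.29 for Zfpm1, 0.53 for Ddit3, 0.28 for Batf, 0.64 for Klf7 and -0.92 for Zeb2. In GMP they were -0.58 for Gata2, -0.40 for Zfpm1, -0.98 for Klf1, -0.31 for Gfi1b, 1.61 for Id2 and -0.30 for Atf4.

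The number of calls on these lists also changed when a single GMP pool was left out, as it did for the factors. Without G0 GMP pool 1, 2 of the erythroid and megakaryocyte factors and 2 of the receptors and effectors passed between GMP and CMP in G0, and 0 on each other list. Without G4/G5 GMP pool 1, 4 of the erythroid and megakaryocyte factors and Gfi1b passed in G4/G5, and 0 on each other list.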

How the data were processed

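The deposited series table holds MAS5 intensity values, a linear signal for each of 45101 probe sets of 8 arrays, which the authors scaled to a target of 100 per the series' design text. RNA of 5000 to 20000 sorted cells per array was labelled, per the labels' protocols. Probe sets were named from the platform annotation, and 34945 had a single symbol. Signals were taken as log2(signal + 10), a gene was tested where a probe set reached 50 on at least 2 arrays, and the brightest probe set by mean signal stood for the gene. The limma package (3.58.1, R 4.3.3) fitted 1 mean per group over 8 arrays, with 4 residual degrees of freedom and moderation along mean intensity. Adjusted p-values are Benjamini-Hochberg values over 8886 genes with a threshold of 0.05. The 6 comparisons share arrays. The fit was tested on simulated data. With 2 arrays per group, their number limits the precision.

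Members, lists and tests were chosen with earlier results of these data known. All 9 members were described with every probe set. From each list, up to 4 genes with the smallest adjusted p between cell types in G0 and up to 2 per genotype comparison were picked for naming, the latter printed in part, and for each factor the 2 genes of highest correlation. Gata1, and list genes named for passing in G4/G5, were chosen after their values were seen. The series' design text pairs same-numbered pools by age and sex. Their deviations from group means correlated at 0.247 in CMP and 0.139 in GMP over 8886 genes. Alternatives were other pseudocounts, filters, normalizations, probe set rules, sample sets, pool blocks and leaving out each array.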

Additional observations from a re-analysis of the deposited data

How the results depend on the processing

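With 2 pools per group, 1 array moved most counts of calls. Leaving out an array in turn gave between 0 and 2 factors called for the genotype in CMP, 0 and 3 for the mean genotype effect, 0 and 6 for the cell type in G0 and 0 and 5 in G4/G5. Fits of only the groups compared called 1 factor for the genotype in GMP (Gfi1) and 1 for the cell type in G4/G5. The mean and the interaction use all groups, so no such fit was made for them. With the replicate block within each cell type, 5 factors passed in G0 and 3 in G4/G5, among 2356 and 1465 genes called over all. No member call other than that of Cebpa in G0 changed. Over all genes, the alternatives called between 0 and 443 genes for the genotype in CMP, 0 and 327 in GMP, 0 and 685 for the mean, 0 and 11 for the interaction, 67 and 2844 for the cell type in G0 and 65 and 1465 in G4/G5.

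Of the log2 differences of the factors, Runx1 in the interaction turned to 0.00016 with a pseudocount of 50, 0.050 with quantile normalization and 0.0058 with median centring, and Spi1 between cell types in G4/G5 to 0.014 with quantile normalization. The rest that turned did so when 1 array was left out. For the genotype in CMP, Spi1 ranged from -0.0095 to 0.93 and Klf4 from -0.26 to 1.34. For the genotype in GMP, Cebpb ranged from -0.12 to 0.10, Spi1 from -0.30 to 0.045 and Irf8 from -0.15 to 0.54. The mean effect of Spi1 ranged from -0.069 to 0.40. In the interaction, Gfi1 ranged from -0.55 to 0.36, Klf4 from -0.93 to 0.68 and Runx1 from -0.28 to 0.25. Between cell types, Irf8 ranged from -0.38 to 1.01 in G0, and in G4/G5 Cebpa from -0.30 to 0.66, Spi1 from -0.48 to 0.31 and Klf4 from -0.0013 to 1.61. Apart from leaving out the array itself, the cause was not tested.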
